A study of Mus musculus with 4 samples.

Results

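The genes described here are the Wnt ligands, their receptors and the transcription factors that answer them: 19 Wnt ligands, 10 Frizzled receptors, 5 co-receptors (Lrp5, Lrp6, Ror1, Ror2 and Ryk), 4 TCF/LEF factors and Axin2. They were chosen by symbol, and all 39 are among the 21881 genes in the deposited table. Polyadenylated RNA was sequenced from 4 cultures of mouse mesenchymal stem cell lines, fibroblast-like cells of adult bone marrow. A retrovirus for Flag-HA-NR6A1, an epitope-tagged orphan nuclear receptor known mainly as a repressor in the embryo and germ line, had been given to clone 12 and clone 6 (NR6A1, 2 libraries). The same 2 clones had received the empty pMMP-puro retrovirus (vector, 2 libraries). Both viruses carry puromycin resistance. Both lines are immortalised, come from C57BL/6 mice, carry floxed Dicer alleles (Dicer f/f) with Dicer function intact, and each descends from 1 cell. Each combination of clone and virus is 1 library, so a repeat culture was not measured, and clone 12 against clone 6 compares 2 lines.

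Wnt ligands are lipid-modified secreted proteins that bind a Frizzled receptor. With Lrp5 or Lrp6 as partner this stops the destruction of beta-catenin, which then enters the nucleus and drives genes through TCF/LEF factors, whereas binding to Ror2 or Ryk acts largely without beta-catenin. Axin2 is a target of the first route and inhibits it in turn, so its level is widely used as a readout. In bone marrow stroma of the mouse, Wnt10b is known to favour bone-forming over fat-forming differentiation.

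Levels are FPKM, read fragments scaled to transcript length and library size, and so can be compared between genes. The depth inferred from the values was between 20.4 (NR6A1, clone 12) and 24.1 (vector, clone 6) reads per FPKM and kilobase. Nr6a1 was at 597.7 and 782.6 FPKM in the NR6A1 libraries of clone 12 and clone 6, against 2.80 and 4.18 FPKM in the vector libraries, in accord with the labels. Of 14 mesenchymal stem cell markers, 13 averaged at least 1 FPKM, and Thy1 did not exceed 0.0297 FPKM. Of these 13, limma called 3 higher (Ly6a, Vcam1, Cd44) and 3 lower (Col1a1, Cxcl12, Pdgfra) in clone 12 than in clone 6. Over all 11346 genes tested, 11.5% were called higher and 10.5% lower in clone 12. Ly6a, which encodes the stem cell antigen Sca-1, was at 125.2 and 9.31 FPKM with NR6A1 in clone 12 and clone 6, against 316.8 and 19.0 FPKM with vector (limma adjusted p = 0.169 between viruses, 0.0299 without short RNA genes). Of the markers of other cell types, none of 6 endothelial genes (highest value 0.141 FPKM), 1 of 10 blood genes (Cd14), 1 of 6 neural genes (Tubb3) and 1 of 6 epithelial genes (Krt14) averaged 1 FPKM. The summed epithelial markers stood at 1.37 and 0.831 FPKM with NR6A1, against 3.14 and 13.1 FPKM with vector (in the order clone 12, clone 6). Of the 13.1 FPKM in vector clone 6 the keratin gene Krt14 made 12.9, and Epcam and Cdh1 did not exceed 0.0523 FPKM in any library. Their part in the results below was not tested.

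Most Wnt ligands were hardly read in these cells. Of the 39 genes, 19 averaged at least 1 FPKM over the 4 libraries and were tested: 4 ligands, 7 Frizzled receptors, 4 co-receptors and all 4 TCF/LEF factors. Ryk, which encodes a kinase-like Wnt receptor, stood above all others, at 67.8 to 78.6 FPKM. The ranges of the next 5 genes overlapped: Wnt10b (13.0 to 40.9 FPKM), Lrp6 (19.1 to 22.9), Lrp5 (14.3 to 25.0), Fzd2 (12.9 to 19.7) and Tcf7 (10.4 to 19.4). Among the 20 genes below the filter, 13 stayed under 0.1 FPKM in every library, 10 of them ligands, including the founding member Wnt1 and the early-embryo ligand Wnt3a. Wnt8a was listed at 0 in all 4 libraries. Reads of antisense genes could not be told apart for Fzd5, Fzd6, Lef1, Tcf7l1 and Wnt5a. Ror1, a relative of Ror2, did not exceed 0.0123 FPKM, so of that pair Ror2 was the one read.

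**Figure D1:**
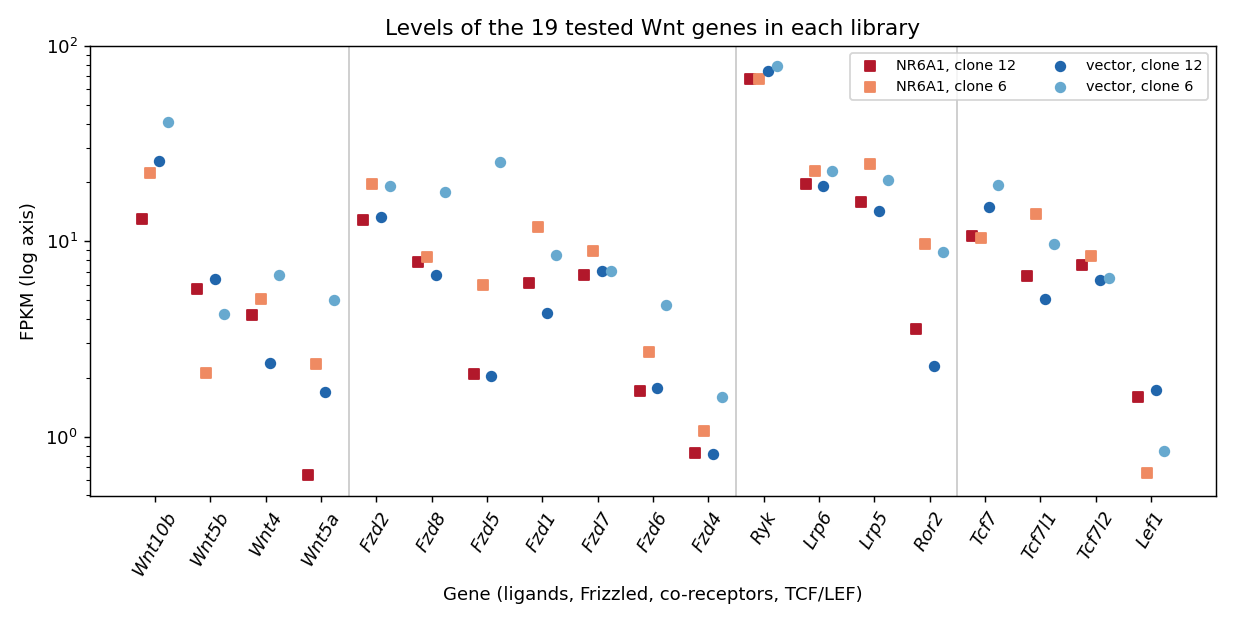
FPKM (log axis) of the 19 tested genes in each of the 4 libraries, 1 point per library (squares NR6A1, circles vector), grouped by role and ordered by mean level. Ryk lies highest, at 67.8 to 78.6 FPKM, and Wnt10b is the leading ligand, with both NR6A1 points below both vector points.

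Wnt10b was the most abundant ligand in every library and was lower with NR6A1 in both clones. It stood at 13.0 and 22.4 FPKM in the NR6A1 libraries of clone 12 and clone 6, against 25.7 and 40.9 FPKM in their vector libraries, means of 17.7 ± 6.61 and 33.3 ± 10.7 FPKM (SD, n = 2 each). The NR6A1 level was 49.3% below vector in clone 12 and 45.2% below in clone 6. The libraries of the 2 viruses did not overlap, as for 10.7% of all genes tested in this direction. In bulk RNA, fewer cells that make a transcript and less of it per cell cannot be told apart. On the log2(FPKM + 1) scale used for all tests, which understates changes of low genes, the difference was -0.88 ± 0.08 (SE; -0.93 in clone 12, -0.84 in clone 6). Over all 11346 genes tested this did not pass limma's Benjamini-Hochberg threshold of 0.05 (adjusted p = 0.142). It passed when short RNA genes were left out of the fit (limma adjusted p = 0.0299) and with a robust prior (limma adjusted p = 0.0379), and over all settings with 4 libraries the adjusted p ran from 0.0299 to 1. In fits on 3 libraries, which have no clone term, the difference was -1.25 to -0.52 and was not called.

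Wnt10b made up 51.2% and 62.2% of the summed FPKM of all 19 ligands in the NR6A1 libraries of clone 12 and clone 6, against 68.5% and 69.3% in the vector libraries. The ligand sum itself was 25.5 and 36.0 FPKM with NR6A1, against 37.5 and 59.0 FPKM with vector. Without Wnt10b the sums were 12.4 and 13.6 FPKM with NR6A1, against 11.8 and 18.1 FPKM with vector, so outside Wnt10b the sum was higher with NR6A1 in clone 12 and lower in clone 6.

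The other 3 tested ligands differed in how the clones compared. Wnt5a, which signals mainly through Ror2 and Ryk, was at 0.633 and 2.36 FPKM with NR6A1 in clone 12 and clone 6, against 1.69 and 5.01 FPKM with vector. Within each clone it was lower with NR6A1, while the values of the 2 viruses overlapped. The log2 difference was -0.78 ± 0.15 (SE, limma adjusted p = 0.355), and -1.36 to -0.20 in fits on 3 libraries. Wnt5b, its close relative, was at 5.68 and 2.12 FPKM with NR6A1 against 6.43 and 4.26 FPKM with vector, a difference of -0.15 in clone 12 and -0.75 in clone 6 (limma adjusted p = 0.635). Wnt4, a ligand of kidney and gonad development, differed in opposite directions: it was at 4.21 FPKM with NR6A1 against 2.37 FPKM with vector in clone 12, and at 5.09 against 6.75 FPKM in clone 6.

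Below the filter, Wnt7b and Wnt9a were the ligands with the highest values. Wnt7b, a ligand of lung and bone development, was at 0.596 and 1.87 FPKM with NR6A1 against 0.129 and 0.463 FPKM with vector. Its ratio of NR6A1 to vector was 4.61 in clone 12 and 4.03 in clone 6, resting on about 39 and 126 inferred reads with NR6A1 and 9 and 36 with vector, and it was not tested. Wnt9a was at 0.406 and 1.58 FPKM with NR6A1 against 0.474 and 0.856 FPKM with vector, with opposite directions in the clones. Wnt2b, Wnt6 and Wnt11 lay between 0.0365 and 0.327 FPKM, and Wnt10a, the ligand closest to Wnt10b, was listed at 0 with NR6A1 and at 0.0247 and 0.070 FPKM with vector, about the level of single reads.

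Among the Frizzled genes, which encode the main Wnt receptors, Fzd1 was higher with NR6A1 in both clones, and Fzd5 and Fzd8 stood out in the vector library of clone 6. Fzd1 was at 6.10 and 11.9 FPKM with NR6A1 in clone 12 and clone 6, against 4.28 and 8.47 FPKM with vector, differences of 0.43 and 0.45. The combined difference was 0.44 ± 0.09 log2 units (SE, limma adjusted p = 0.384). In fits on 3 libraries it was 0.0058 without NR6A1 clone 6, 0.02 without vector clone 12, 0.86 without vector clone 6 and 0.87 without NR6A1 clone 12. Fzd2, the most abundant Frizzled in 3 of the 4 libraries, hardly differed, at 12.9 and 19.7 FPKM with NR6A1 against 13.3 and 19.3 FPKM with vector.

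Fzd5 was at 2.10 and 6.00 FPKM with NR6A1 in clone 12 and clone 6, against 2.04 and 25.5 FPKM with vector. It was the leading Frizzled in the vector library of clone 6, with 29.8% of the Frizzled sum there and 10.1% in the NR6A1 library of that clone. Fzd8 was also highest there, at 7.82 and 8.31 FPKM with NR6A1 against 6.75 and 17.9 FPKM with vector, as was Fzd6, at 1.72 and 2.72 against 1.77 and 4.73 FPKM. In clone 6 the NR6A1 minus vector differences of Fzd5, Fzd8 and Fzd6 were -1.92, -1.02 and -0.62, and in clone 12 they were 0.02, 0.19 and -0.03. Whether the clones differ here cannot be tested with 1 library per clone and virus. Without the vector library of clone 6 the fitted differences became 0.61, 0.22 and 0.20 log2 units. That fit has no clone term, so differences between the 2 lines enter these values.

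Fzd7 was at 6.74 and 8.94 FPKM with NR6A1 against 7.01 and 7.04 FPKM with vector, and Fzd4, the receptor of retinal vessel growth, at 0.824 and 1.07 against 0.811 and 1.60 FPKM. Fzd9 lay at 0.514 to 0.722 FPKM, and Fzd3 and Fzd10 at or below 0.0377 FPKM. The Frizzled sum was 38.8 and 59.3 FPKM with NR6A1, against 36.5 and 85.3 FPKM with vector.

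No co-receptor was called between viruses. Lrp6 was at 19.6 and 22.9 FPKM with NR6A1 against 19.1 and 22.9 FPKM with vector, and Lrp5, its partner in beta-catenin signalling and a regulator of bone mass, at 15.8 and 25.0 against 14.3 and 20.7 FPKM. Ryk was at 67.8 and 67.9 FPKM with NR6A1, below both vector values of 74.0 and 78.6 FPKM, a log2 difference of -0.17 ± 0.07 (SE, limma adjusted p = 0.637). Ror2, a receptor tyrosine kinase for Wnt5a, was at 3.56 and 9.72 FPKM with NR6A1 against 2.31 and 8.81 FPKM with vector, differences of 0.46 in clone 12 and 0.13 in clone 6 (limma adjusted p = 0.641).

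Within the TCF/LEF family, Tcf7 was lower and Tcf7l1 and Tcf7l2 were higher with NR6A1 in both clones. Tcf7, which encodes TCF-1, an activator with beta-catenin and a repressor without it, was at 10.7 and 10.4 FPKM with NR6A1 against 14.9 and 19.4 FPKM with vector, with no overlap. The difference was -0.45 in clone 12 and -0.84 in clone 6, together -0.64 ± 0.13 log2 units (SE, limma adjusted p = 0.364). Tcf7l1, which encodes TCF-3, known mainly as a repressor, was at 6.65 and 13.8 FPKM with NR6A1 against 5.05 and 9.69 FPKM with vector. Both clones were higher with NR6A1 by 0.34 and 0.47, together 0.40 ± 0.09 log2 units (SE, limma adjusted p = 0.438). Tcf7l2, which encodes TCF-4, was at 7.60 and 8.39 FPKM with NR6A1, above both vector values of 6.35 and 6.51 FPKM (0.27 ± 0.09, limma adjusted p = 0.582). Lef1 was the scarcest of the family, at 1.60 and 0.649 FPKM with NR6A1 against 1.73 and 0.839 FPKM with vector.

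The shares within the family differed between viruses more than its sum, which was 26.5 and 33.2 FPKM with NR6A1, against 28.1 and 36.5 FPKM with vector. Tcf7 held 40.3% and 31.2% of the sum with NR6A1 in clone 12 and clone 6, against 53.2% and 53.3% with vector. The ratio of Tcf7 to Tcf7l1 was 1.61 and 0.752 with NR6A1, against 2.95 and 2.0 with vector. In the NR6A1 library of clone 6 Tcf7l1 was the leading member, and in the other 3 libraries Tcf7 was.

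**Figure D2:**
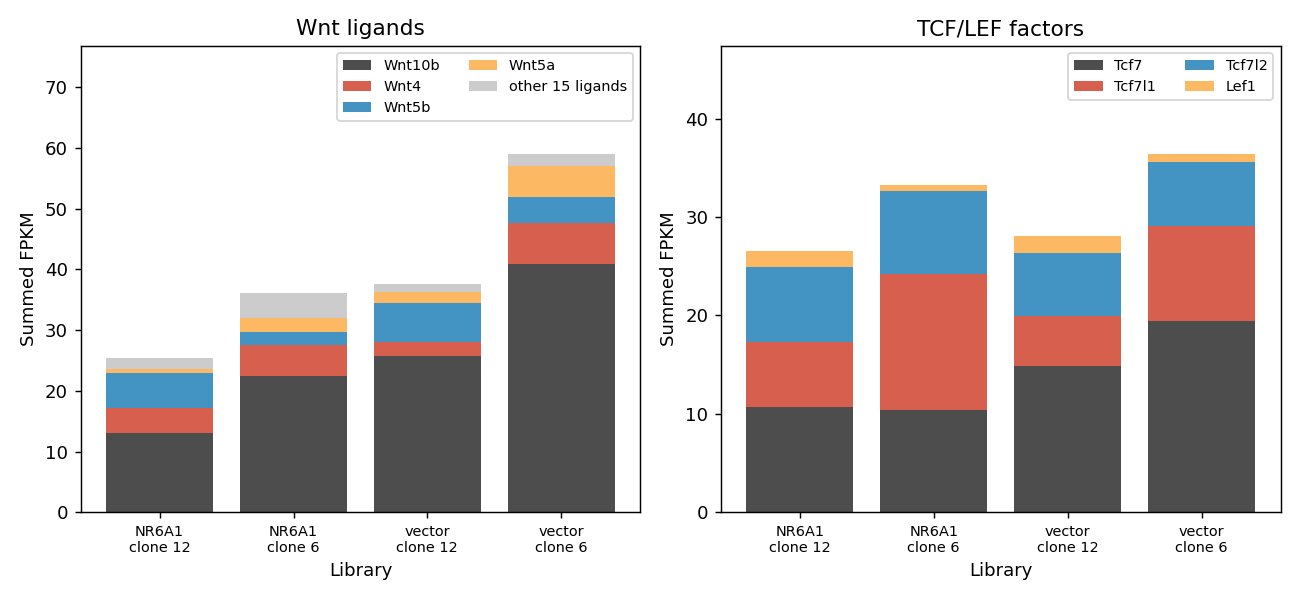
Stacked FPKM of the Wnt ligands (left; the 4 tested ligands and the sum of the others) and of the TCF/LEF factors (right) in each library, NR6A1 left of vector. Wnt10b takes a smaller part of the NR6A1 than of the vector column in both clones, and Tcf7 makes up 40.3% and 31.2% of its family with NR6A1 against 53.2% and 53.3% with vector.

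Axin2 was near the lower end of what these libraries can show. It was at 0.121 and 0.0944 FPKM with NR6A1 in clone 12 and clone 6, against 0.0884 and 0.536 FPKM with vector. The vector library of clone 6 stood apart with about 52 inferred reads, and the other 3 libraries had 8 to 10. Axin2 did not reach the filter and was not tested.

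Over the family, none of the 19 tested genes passed in the comparison of NR6A1 with vector. There limma called 4 of all 11346 genes (0.0353%, with 0.0264% higher and 0.00881% lower), Nr6a1 itself among the higher. At an unadjusted p under 0.05 there were 6 of 19, Wnt10b, Wnt5a and Tcf7 lower and Fzd1, Tcf7l1 and Tcf7l2 higher, beside 8.48% of all genes, 5.01% lower and 3.47% higher. Of the 19, 3 were lower by at least 1.2-fold in both clones (Wnt10b, Wnt5a, Tcf7), beside 3.55% of all genes, and 2 were higher by as much (Fzd1, Tcf7l1), beside 2.14%, on the log2(FPKM + 1) scale. Only Wnt4 differed by as much in opposite directions, beside 1.52%. The 2 viruses did not overlap for 3 genes lower with NR6A1 (Wnt10b, Tcf7, Ryk), beside 10.7% of all genes, and for 1 higher (Tcf7l2), beside 9.68%. The median log2 difference was -0.12 over the 19 genes and 0.00098 over all genes tested.

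**Figure D3:**
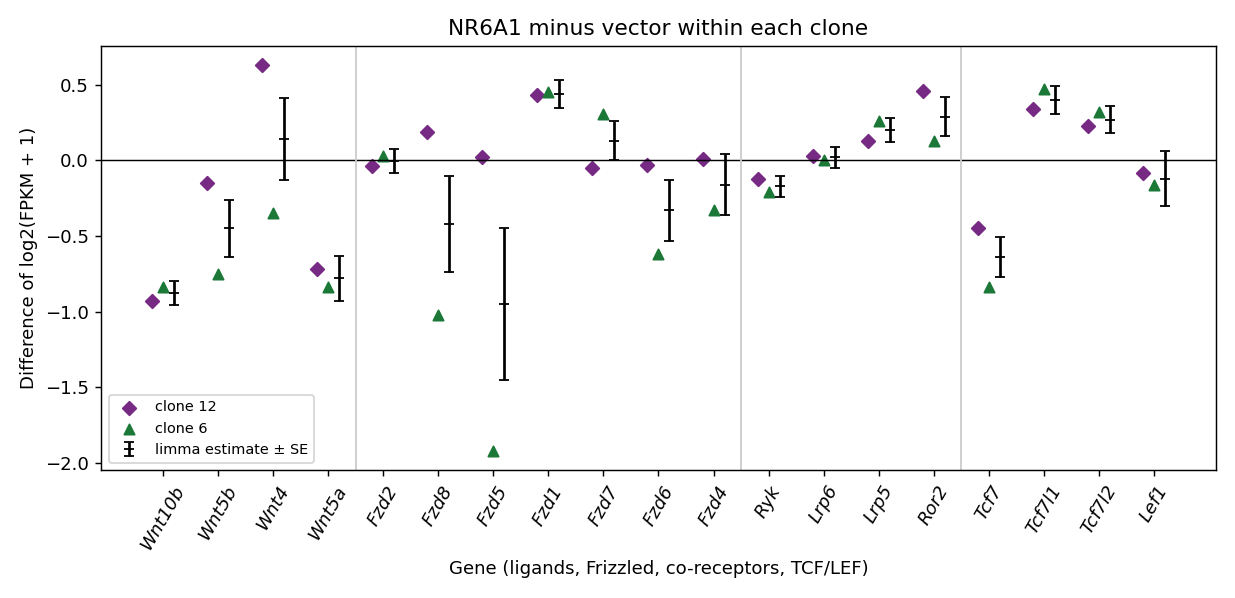
NR6A1 minus vector on the log2(FPKM + 1) scale for the 19 tested genes, in clone 12 (diamonds) and clone 6 (triangles), with the limma estimate and its SE (bars). Wnt10b, Wnt5a and Tcf7 lie below 0 and Fzd1, Tcf7l1 and Tcf7l2 above 0 in both clones, while Fzd5 is at 0.02 in clone 12 and -1.92 in clone 6.

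Differences between viruses were wider in clone 6 than in clone 12, which was not tested. In clone 6, 14 of the 19 genes differed between viruses by at least 1.2-fold in either direction, beside 23.6% of all genes, and in clone 12, 7 of 19, beside 14.0%. The median size of the log2 difference was 0.35 in clone 6 and 0.15 in clone 12, beside 0.14 and 0.09 over all genes. The vector library of clone 6 held the highest of the 4 values for 9 of the 19 genes (25.0% of all genes) and the NR6A1 library of clone 6 for 8 (23.4% of all genes). The vector library of clone 12 held it for 2 (31.4% of all genes) and the NR6A1 library of clone 12 for none (20.1% of all genes).

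Promoters are shown for those members averaging 5 FPKM or more that differed between viruses by at least 1.2-fold the same way in both clones, 2 lower (Wnt10b, Tcf7) and 2 higher (Fzd1, Tcf7l1). They are RefSeq sequences of build GRCm38.p6, a later build than the mm9 of the files, from 250 bases before to 50 after an annotated start, on the minus strand: Wnt10b at chr15:98778101-98778400, Tcf7 at chr11:52282546-52282845 (the start with a match, of 2 listed), Fzd1 at chr5:4758167-4758466 and Tcf7l1 at chr6:72788996-72789295. Capitals mark AGGTCA, the short element that NR6A1 binds as a direct repeat, on either strand.
Wnt10b: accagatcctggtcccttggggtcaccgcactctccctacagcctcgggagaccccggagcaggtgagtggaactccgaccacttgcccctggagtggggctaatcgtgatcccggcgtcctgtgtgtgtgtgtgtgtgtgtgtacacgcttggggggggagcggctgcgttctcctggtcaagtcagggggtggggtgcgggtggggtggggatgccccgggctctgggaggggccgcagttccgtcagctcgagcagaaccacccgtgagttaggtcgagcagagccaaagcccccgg
Tcf7: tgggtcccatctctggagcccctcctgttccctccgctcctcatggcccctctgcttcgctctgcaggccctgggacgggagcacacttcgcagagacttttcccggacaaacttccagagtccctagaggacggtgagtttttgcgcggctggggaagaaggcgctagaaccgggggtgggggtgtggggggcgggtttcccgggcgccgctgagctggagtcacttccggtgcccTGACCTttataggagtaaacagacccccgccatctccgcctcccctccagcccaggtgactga
Fzd1: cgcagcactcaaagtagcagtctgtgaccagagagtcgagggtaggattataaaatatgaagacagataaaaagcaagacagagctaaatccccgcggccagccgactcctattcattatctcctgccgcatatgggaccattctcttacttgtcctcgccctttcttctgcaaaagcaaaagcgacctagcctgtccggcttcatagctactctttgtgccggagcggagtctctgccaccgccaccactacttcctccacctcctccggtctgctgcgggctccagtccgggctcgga
Tcf7l1: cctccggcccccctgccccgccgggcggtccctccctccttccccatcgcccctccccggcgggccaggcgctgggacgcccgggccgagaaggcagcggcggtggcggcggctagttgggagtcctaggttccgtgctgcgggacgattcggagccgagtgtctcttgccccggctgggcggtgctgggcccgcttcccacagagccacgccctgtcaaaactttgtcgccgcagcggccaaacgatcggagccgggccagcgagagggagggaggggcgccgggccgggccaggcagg

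On both strands of these windows, AGGTCA occurred once in the Tcf7 promoter shown, as TGACCT, and not in the other 3. It was in 2 of the 37 promoters listed for 29 of the 39 genes (Tcf7 and Wnt16), and in 16.3% of all 32851 promoters. The direct repeat (AGGTCA followed at once by AGGTCA) and the extended element TCAAGGTCA, both of which contain AGGTCA, were in none of the 37, and in 0.00609% and 0.423% of all promoters. The TCF site CTTTGAT was in 2 of the 37 (Wnt5b and Wnt11) and 3.73% of all promoters, and its second form CTTTGAA in none and 5.14%. These matches describe the letters of the windows and show no binding.

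The second comparison set clone 12 against clone 6 over both viruses, and most of the Wnt genes were lower in clone 12. Of the 19 tested, limma called 7, all lower in clone 12, beside 21.9% of all genes called in either direction, 10.5% lower and 11.5% higher. They were Wnt10b and Wnt5a, Fzd1 and Fzd2, Lrp5 and Ror2, and Tcf7l1. None of the 7 was called with no filter on level or in a fit on 3 libraries, where the clone calls among the 19 were Fzd5, Fzd6 and Fzd8 without NR6A1 clone 6 and none otherwise. At an unadjusted p under 0.05 there were 12 of 19, 10 lower and 2 higher, beside 41.1% of all genes, 18.5% lower and 22.6% higher. The clones did not overlap for 13 genes lower in clone 12, beside 30.3% of all genes, and for 2 higher (Wnt5b and Lef1), beside 37.7%. Of the 19, 9 were lower by at least 1.2-fold with both viruses, beside 14.8% of all genes, and 2 were higher, beside 17.0%; none went opposite ways by as much, beside 0.749%. The median log2 difference was -0.57 over the 19 genes and 0.04 over all genes tested.

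Ror2 showed the largest called difference, at 3.56 and 2.31 FPKM in the NR6A1 and vector libraries of clone 12, against 9.72 and 8.81 FPKM in those of clone 6 (-1.40 ± 0.13 log2 units, SE, limma adjusted p = 0.0185). Wnt5a, its ligand, was at 0.633 and 1.69 FPKM in clone 12, against 2.36 and 5.01 FPKM in clone 6 (-1.10 ± 0.15, limma adjusted p = 0.0254). For both genes every clone 12 value lay below every clone 6 value. Fzd1 was at 6.10 and 4.28 FPKM in clone 12, against 11.9 and 8.47 FPKM in clone 6 (-0.85 ± 0.09, limma adjusted p = 0.0201). Tcf7l1 was at 6.65 and 5.05 FPKM in clone 12, against 13.8 and 9.69 FPKM in clone 6 (-0.89 ± 0.09, limma adjusted p = 0.0198). Clone 6 was the higher line for both genes with either virus.

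Wnt10b was at 13.0 and 25.7 FPKM in the NR6A1 and vector libraries of clone 12, against 22.4 and 40.9 FPKM in clone 6, lower in clone 12 with either virus (-0.69 ± 0.08, limma adjusted p = 0.0205). In fits on 3 libraries the Wnt10b difference between clones was -1.16 to -0.23, and that of Wnt5a -1.52 to -0.68. Lrp5 (-0.57 ± 0.08) and Fzd2 (-0.54 ± 0.08) had the same limma adjusted p of 0.0273. Fzd5 had a larger difference with a larger error, -1.18 between the NR6A1 libraries and -3.12 between the vector libraries (limma adjusted p = 0.0556). Wnt5b went the other way, at 5.68 and 6.43 FPKM in clone 12 against 2.12 and 4.26 FPKM in clone 6 (0.80 ± 0.19, limma adjusted p = 0.0562), as did Lef1 (0.61 ± 0.18, limma adjusted p = 0.0864). Ryk, Tcf7 and Tcf7l2 lay within 0.16 log2 units of 0, with limma adjusted p of 0.678, 0.403 and 0.568. Without the virus term 3 of the tested Wnt genes passed (Fzd2, Lrp5, Ror2), beside 1993 of all 11346 genes. In that fit the tested Wnt genes were not called more often than all genes.

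**Figure D4:**
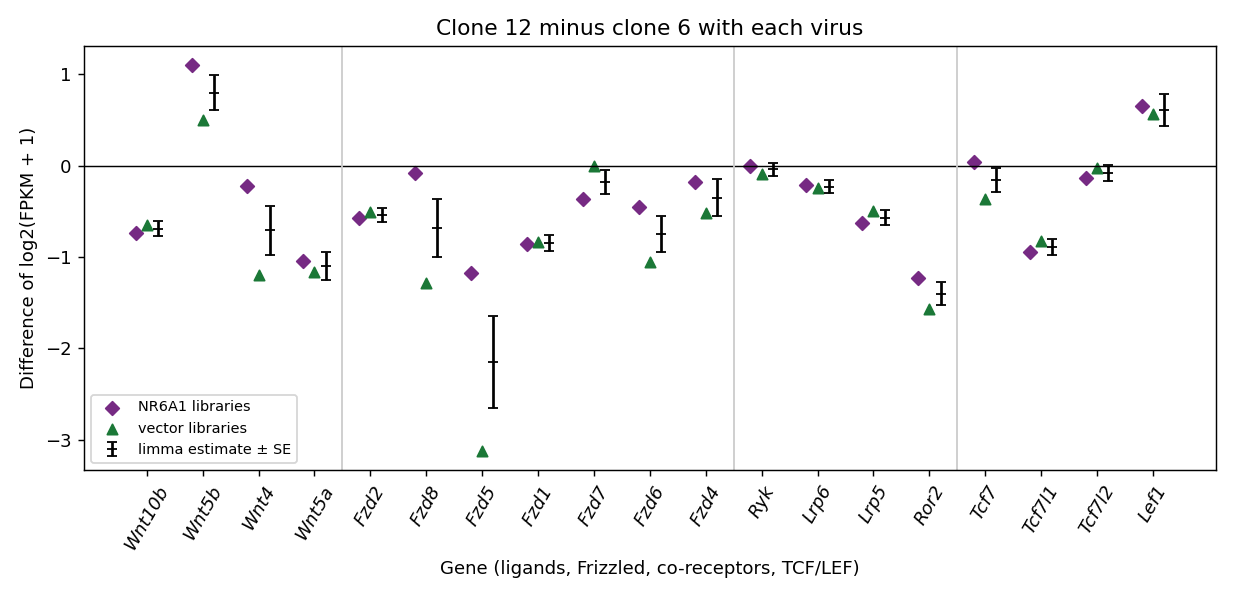
Clone 12 minus clone 6 on the log2(FPKM + 1) scale for the 19 tested genes, between the NR6A1 libraries (diamonds) and between the vector libraries (triangles), with the limma estimate and its SE (bars). Most genes lie below 0 with both viruses, Ror2 at -1.23 and -1.57, and Wnt5b and Lef1 lie above 0.

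The rest of the pathway was read from lists by role, and in the comparison of NR6A1 with vector no member of any of these lists passed. Without short RNA genes, Sfrp2 (lower with NR6A1) and Dkk3 (higher with NR6A1) passed, with limma adjusted p = 0.0129 and 0.0472. R-spondins are secreted proteins that amplify Wnt signals by keeping the ubiquitin ligases Rnf43 and Znrf3 from removing Frizzled, through receptors of the Lgr family. Of 9 listed genes 5 were tested, and 3 were called, all lower in clone 12, beside 10.5% of all genes called lower. Rspo3 was at 1.84 and 1.58 FPKM in the NR6A1 and vector libraries of clone 12, against 17.6 and 42.4 FPKM in those of clone 6 (-3.39 ± 0.36 log2 units, limma adjusted p = 0.0198). Rspo2 was at 7.58 and 8.32 FPKM in clone 12, against 18.2 and 38.3 FPKM in clone 6 (-1.62 ± 0.24, limma adjusted p = 0.0289). Lgr6 was at 3.18 and 1.55 FPKM in clone 12, against 21.6 and 11.0 FPKM in clone 6 (-2.34 ± 0.11, limma adjusted p = 0.00862).

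Between viruses these 3 genes compared as follows. Within clone 6, Rspo2 and Rspo3 were lower with NR6A1 by 1.04 and 1.22 log2 units, and in clone 12 their differences were -0.12 and 0.14. Lgr6 was higher with NR6A1 in both, by 0.71 in clone 12 and 0.92 in clone 6 (limma adjusted p = 0.235). Rnf43, named after its values were seen, is itself a target of beta-catenin signalling. It was at 0 and 0.555 FPKM with NR6A1 in clone 12 and clone 6, against 0.0317 and 2.93 FPKM with vector, and as for Axin2 the vector library of clone 6 was highest. Nkd2, a feedback inhibitor that binds Dishevelled, was at 0.405 and 4.30 FPKM with NR6A1, against 0.403 and 8.17 FPKM with vector. Znrf3 was not highest in the vector library of clone 6, at 4.29 and 3.44 FPKM with NR6A1 against 4.17 and 3.53 FPKM with vector. Nor was Lgr4, at 7.98 and 12.1 FPKM with NR6A1 against 9.71 and 10.5 FPKM with vector.

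**Figure D5:**
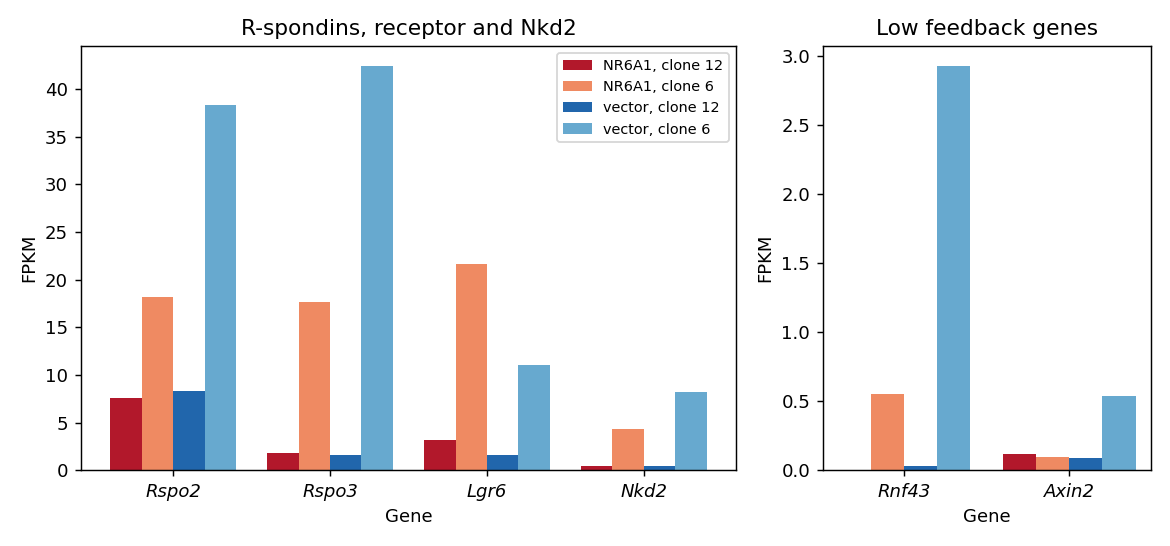
FPKM of Rspo2, Rspo3, Lgr6 and Nkd2 (left) and of the low genes Rnf43 and Axin2 (right) in each library, 1 bar per library, NR6A1 left of vector. The vector library of clone 6 is highest for all shown but Lgr6, whose highest value of 21.6 FPKM is in the NR6A1 library of clone 6. Lgr4 and Znrf3, tested from the R-spondin list but not shown, were not highest in the vector library of clone 6.

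Of 8 genes for the making, release and cell-surface handling of ligands 6 were tested, and none passed in either comparison. Gpc4 had a limma adjusted p of 0.0501 between clones and 0.0192 without short RNA genes. Wls, the carrier that takes Wnt proteins to the cell surface, was at 109.8 and 117.2 FPKM with NR6A1 in clone 12 and clone 6, against 105.0 and 135.3 FPKM with vector. The heparan sulphate proteoglycan gene Gpc4 was at 16.8 and 22.6 FPKM with NR6A1 against 17.0 and 32.6 FPKM with vector, and Sel1l, of protein quality control in the endoplasmic reticulum, at 14.1 and 14.5 against 13.2 and 15.1 FPKM.

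Of 28 genes for the cytoplasmic relay to beta-catenin 25 were tested, 3 called higher and 4 lower in clone 12, beside 11.5% of all genes higher and 10.5% lower, so the list lay near the share of all genes. The lower ones were led by the inhibitors Nkd2 (-2.31 ± 0.25 log2 units, limma adjusted p = 0.0201) and Dact1 (-1.94 ± 0.19, limma adjusted p = 0.0193), followed by the casein kinase gene Csnk1g2 (-0.43) and the Dishevelled gene Dvl3 (-0.40). Dact2 (1.28 ± 0.22, limma adjusted p = 0.0353) and Dvl2 (0.46) led the higher ones. Of 20 nuclear cofactors 19 were tested and 3 called, all lower in clone 12 (Aes, Tle2 and Tle4, of the Groucho family). This stood beside 21.9% of all genes called in either direction and 10.5% lower. Tle2 (-1.58 ± 0.16, limma adjusted p = 0.0197) and Tle4 (-0.94 ± 0.15, limma adjusted p = 0.0303) were lower, whereas their relatives Tle1 (-0.18, limma adjusted p = 0.289) and Tle3 (0.18, limma adjusted p = 0.158) were not called. Aes was at 1.44 and 9.56 FPKM in the NR6A1 and vector libraries of clone 12, against 105.6 and 254.5 FPKM in clone 6 (-5.02 ± 0.23, limma adjusted p = 0.00841). Of 16 planar polarity genes, which orient cells in a sheet, 12 were tested, with Scrib (0.49) and Rhoa (0.36) called higher, beside 11.5% of all genes, and Vangl2 (-0.84) and Ptk7 (-0.51) lower in clone 12, beside 10.5%.

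Among 15 secreted antagonists and their receptors 7 were tested, and 5 were called, all lower in clone 12, beside 10.5% of all genes: Wif1 (-3.75), Sfrp1 (-3.40), Sfrp2 (-2.33), Frzb (-1.12) and Dkk3 (-0.82). Sfrp2 was at 29.0 and 203.7 FPKM with NR6A1 in clone 12 and clone 6, against 352.2 and 1310.1 FPKM with vector (limma adjusted p = 0.0949 over all genes). Dkk3 was higher with NR6A1, at 64.2 and 113.2 FPKM against 39.5 and 70.8 FPKM with vector (limma adjusted p = 0.169 over all genes).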

How the data were processed

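Per the labels, polyadenylated RNA of 4 libraries was column-purified, DNase-treated and made into standard Illumina libraries. The deposited FPKM values, 1 per gene and library, were made by the authors with TopHat 1.2.0, Cufflinks 1.0.3 and build mm9, per the submitters' processing notes. Their gene annotation and strandedness: not given in the sources used here. Antisense genes annotated in GENCODE overlap exons of Fzd5, Fzd6, Lef1, Tcf7l1 and Wnt5a, so reads of both could be shared. The FPKM of Nr6a1 adds viral to endogenous transcripts.

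Depth was inferred from steps between low FPKM values of 4033 genes with 1 coding transcript (length minus 200 bases). Between 47.7% and 53.8% of low values came within 0.1 of a whole number of reads. Chance gives 20% for a depth fixed in advance. Here depth and the 200 bases were chosen to bring these values near whole numbers, so 20% is not their chance level. Depth is thus approximate, and count models were not used.

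The 11346 of 21881 genes that averaged 1 FPKM or more were tested as log2(FPKM + 1) with limma 3.58.1 in R 4.3.3 (variance trend, two-sided, Benjamini-Hochberg at 0.05), with virus and clone as terms. The clone term is the pairing: per the labels, either virus was put into either line. Clone differences correlated across genes between viruses (r = 0.628, or 0.874 without the 198 tested short RNA genes). This leaves 1 residual degree of freedom, and p-values measure the agreement of 2 lines or 2 viruses, not of repeat cultures. The fit was tested on simulated data, with noise drawn from its own variance trend and prior. Each simulated virus difference was equal in both clones, so clones that differ in response were not covered. Members with a mean of at least 1 FPKM are given with all values; of each pathway list, genes called (up to 6 by size) or otherwise the 3 highest are named, some with their log2 difference alone. Tle1, Tle3, Rnf43, Znrf3 and Lgr4 were added with their values known. Members and lists were chosen with earlier results of these data known. Alternatives were pseudocounts of 0.1 and 5, other filters, scalings and variance models, no short RNA genes, no clone term, a false discovery rate of 0.1, and each library left out.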

Additional observations from a re-analysis of the deposited data

Results flagged for a closer look

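Wnt4 differed in opposite directions in the 2 clones, each by at least 1.2-fold: NR6A1 minus vector was 0.63 log2 units in clone 12 and -0.35 in clone 6. It was at 4.21 and 5.09 FPKM with NR6A1 in clone 12 and clone 6, against 2.37 and 6.75 FPKM with vector. With 1 library per clone and virus the difference between the clones was not tested, and 1.52% of all 11346 genes met the same condition.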

How the results depend on the processing

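Wnt10b, Wnt5a, Tcf7, Tcf7l2, Ryk and Fzd1 kept their direction between viruses in every setting tried, Fzd1 and Wnt5a with differences as small as 0.0058 and -0.20 on 3 libraries. For NR6A1 against vector, limma called 4 genes in all: 7 with a pseudocount of 5, 2 with no filter, 38 with a robust prior, 52 without short RNA genes, 25 at a false discovery rate of 0.1 and 0 without any 1 library (96 to 286 at an unadjusted p under 0.05). Members called numbered 1 (Wnt10b) with the robust prior and without short RNA genes, and 0 otherwise. For clone 12 against clone 6 the 2490 genes became 0 with no filter (5360 at an unadjusted p under 0.05), 1581 with no variance trend, 4163 at 0.1 and 41 to 889 without 1 library. The 7 members became 0 with no filter, 11 without short RNA genes, 11 at 0.1, 3 with no replicate block and 0 to 3 without 1 library (none of the 7 among them). With no replicate block, limma called 4 genes and 0 members between viruses, and 1993 of all genes between clones. Without short RNA genes it called 3490 of 11148 genes between clones. Members at least 1.2-fold higher with NR6A1 in both clones fell to 0, and those higher in clone 12 to 1, with a pseudocount of 5; this count was 0 with a filter at 5 FPKM. Fits without 1 library have no replicate block and take the lone library to vary like the others; there the NR6A1 minus vector difference turned direction for Wnt4 (-0.46 to 0.74), Wnt5b (-1 to 0.1), Fzd2 (-0.29 to 0.28), Fzd4 (-0.42 to 0.1), Fzd5 (-2.51 to 0.61), Fzd6 (-0.85 to 0.2), Fzd7 (-0.05 to 0.31), Fzd8 (-1.06 to 0.22), Lrp5 (-0.12 to 0.52), Lrp6 (-0.11 to 0.14), Ror2 (-0.49 to 1.08), Lef1 (-0.44 to 0.21), Tcf7l1 (-0.07 to 0.88). Between clones it turned for Ryk (-0.15 to 0.06), Tcf7 (-0.58 to 0.26), Tcf7l2 (-0.24 to 0.08). With no replicate block, a fit without 1 library mixes differences between viruses with those between the lines. A turned direction there need not be one within a clone or virus. Under quantile scaling Fzd2 was at 0.00087, against -0.0043 log2 units. Other causes were not tested. Genes at a few reads, such as Axin2 in 3 libraries, are limited by depth.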

Other observations

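Of 23 reported targets of beta-catenin signalling, 13 were tested, and in clone 12 against clone 6 limma called 3 higher (Myc; Jun, 0.90; Cd44, 0.53 log2 units), beside 11.5% of all genes, and 1 lower (Sp6), beside 10.5%. Myc, a growth regulator, was at 92.6 and 97.7 FPKM in the NR6A1 and vector libraries of clone 12, against 51.8 and 42.4 FPKM in clone 6 (1.0 ± 0.11 log2 units, SE, limma adjusted p = 0.0211). Sp6, a zinc finger factor of tooth and limb, was at 0.0919 and 0.137 FPKM in clone 12, against 4.18 and 8.13 FPKM in clone 6 (-2.63 ± 0.25, limma adjusted p = 0.0185). Between viruses none of the 13 was called. Bambi and Wisp2 were picked for naming with their values known. Bambi stood at 0.784 and 2.19 FPKM with NR6A1 in clone 12 and clone 6, against 0.871 and 5.81 FPKM with vector. Wisp2 was higher with NR6A1 in both clones, at 77.7 and 51.7 FPKM against 58.6 and 16.4 FPKM (limma adjusted p = 0.553). With values known, the 13 were also compared in the vector library of clone 6. Sp6 and Bambi were highest there, and Ccnd1, Myc, Wisp2, Fosl1, Jun and Ppard were lowest there.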
